A study of Mus musculus with 70 samples.

Results

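Basal progenitors (BP) were compared with neural stem cells (NSC) of the mouse dorsal cerebral cortex at E12.5 (counted in embryonic days), the earliest stage at which BP were collected. The comparison took 6 of the 70 RNA-seq libraries of the series, 3 BP and 3 NSC, and the 13551 of 23078 genes whose mean reached 1 TPM (a share of a library's transcripts, scaled by length) in at least 1 of the 2 groups. BP were sorted by GFP from Tbr2::GFP mice and NSC from Hes5::GFP mice, all labelled C57Bl/6, wild-type and female, with the dorsal cortex of the forebrain as the tissue. The other libraries followed both populations through later stages, and added newborn neurons of the Tbr2::GFP line from E15.5 on. Each population was defined by 1 reporter gene, Tbr2 being the protein of Eomes and Hes5 a Notch target. The reporter line coincides with the cell type, and the 2 cannot be told apart. No newborn neuron library stands beside the BP libraries at E12.5. The sources used here do not say how BP and newborn neurons were gated apart, nor whether replicates came from separate animals, so the p-values measure the spread between libraries, which may be technical. That spread was pooled over the groups of all 70 libraries and is not that of the 6 libraries alone.

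Neural stem cells of the cortex, the radial glia, divide at the ventricular surface and are kept from differentiating by Notch: a ligand on one cell triggers cleavage of a receptor on its neighbour, and the released receptor fragment acts with RBPJ to switch on Hes and Hey repressors, which hold proneural genes down. Daughters that escape this signal raise proneural factors and ligands, switch on Eomes, leave the ventricular surface and divide as basal progenitors before becoming glutamatergic neurons. At the onset of cortical neurogenesis the earliest neurons, among them the reelin-secreting Cajal-Retzius cells, form the preplate, and several of their sources also pass through an Eomes-positive state.

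A gene was called when its adjusted p in limma was below 0.05 and its difference on the log2(TPM + 1) scale was at least 1 (BP minus NSC). On this scale the change of a gene at a few TPM is understated. A gene that passed the filter through 1 group alone could only be higher in that group, so its direction is a description. In all, 2308 of 13551 genes were called (17%), 1574 higher (11.6%) and 734 lower (5.42%) in BP. The split depends on scaling: the median of all genes stood at 0.198 on the log2 scale, and median ratio scaling, which put that median at -0.00231, gave 1023 higher and 1137 lower, while quantile normalization gave 979 and 968.

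The libraries differed in more than cell type, and these values bear on what follows. The 3 BP libraries correlated at 0.990 to 0.992 with one another, whereas NSC library 3 correlated at 0.982 and 0.977 with the other NSC libraries. Levels ran with transcript length: per doubling of length, the log2 level relative to the series changed by 0.0569, 0.0123 and 0.0878 in the BP libraries, against -0.192, -0.161 and -0.417 in the NSC libraries, and NSC library 3 lay outside the range of the 64 libraries of other groups, -0.246 to 0.182. The median difference was -0.46 for genes with transcripts up to 1000 bases and 0.86 for those over 8000, where 40.9% of genes were called higher. At E13.5 the corresponding medians were -0.11 and 0.08. The mitochondrial transcripts summed to 86180, 68830 and 74420 TPM in BP, against 54960, 61560 and 58210 TPM in NSC, and genes above 0 TPM numbered 16668, 16907 and 16434 in BP, against 17389, 17359 and 17970 in NSC; neither measure overlapped between the groups. Transcripts resembling ribosomal RNA or satellites summed to 1035, 4350 and 1480 TPM in BP, against 37620, 4329 and 24500 TPM in NSC, and overlapped. In 3 of the 6 libraries labelled female, BP 1 and NSC 1 and 3, Y-linked transcripts summed to 89.5 TPM or more with Xist below 1 TPM. Counts are therefore given beside those of a fit with the length trend removed from each library, which called 712 genes higher (5.32%) and 856 lower (6.4%) and would also remove a true cell type difference that runs with length, and beside those without NSC library 3, 950 higher (7%) and 746 lower (5.5%). What part these features have in the results was not tested beyond that.

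**Figure D1:**
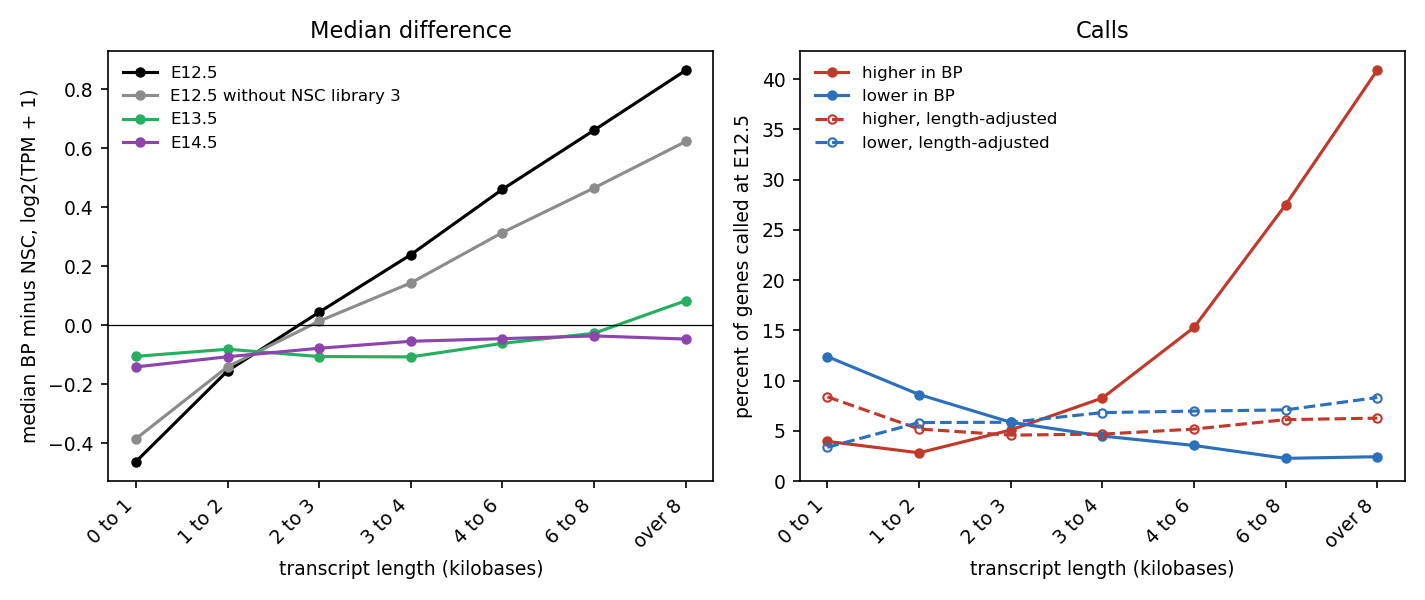
The left panel plots the median log2(TPM + 1) difference, BP minus NSC (y axis), by transcript length in kilobases (x axis), for E12.5 with all libraries, E12.5 without NSC library 3, E13.5 and E14.5; the right panel plots the percent of genes called at E12.5, higher or lower in BP, before and after length adjustment. The E12.5 medians run from -0.46 for the shortest to 0.86 for the longest transcripts, the later stages stay between -0.14 and 0.08, and the share called higher reaches 40.9% for the longest transcripts before adjustment and 6.28% after it.

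The reporter genes set the frame for the rest, and they are the sort itself rather than a result. Hes5, the Notch effector whose reporter marked NSC (ENSMUSG00000048001.7, chr4:154960923-154962371), had 4.002, 4.14 and 3.11 TPM in BP, against 101, 170.2 and 109 TPM in NSC (log2 difference -4.72 ± 0.21 SE, adjusted p = 2.56e-24). Eomes, the T-box factor whose reporter marked BP (ENSMUSG00000032446.8, chr9:118478212-118486132), had 472, 504 and 554 TPM in BP, against 294, 259 and 255 TPM in NSC, a difference of 0.92 ± 0.24 SE on the log2 scale, adjusted p = 0.000822, which missed the size required for a call although the groups did not overlap. Eomes transcript was thus abundant in the Hes5::GFP cells too. At E13.5 the means were 393 TPM in BP and 451 TPM in NSC, and at E14.5 282 TPM in BP and 429 TPM in NSC.

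Of 9 defining NSC markers, 8 were lower in BP. The 8 include Hes5, the gene of the NSC reporter, and Hes1, which passed the filter through NSC alone. The direction of both was set by the sort or the filter. Of 8 BP markers, 2 were higher in BP, Neurod4 and Insm1, and the other 6 were not called. The groups did not overlap, in either direction, for 9 of the 9 NSC markers and 7 of the 8 BP markers, against 67.8% of all genes tested. Those BP markers include Eomes, the gene of the BP reporter, and Gadd45g, which was lower in every BP library than in any NSC library. Of 6 neuronal markers 4 were higher in BP, and of 5 Cajal-Retzius markers 5. Among all genes 11.6% were called higher and 5.42% lower. In bulk libraries, fewer cells of a type and less RNA per cell cannot be told apart. The BP population at E12.5 is therefore described below as Tbr2::GFP cells that include neuronal transcripts, and the part of neurons in each BP value was not tested.

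**Figure D2:**
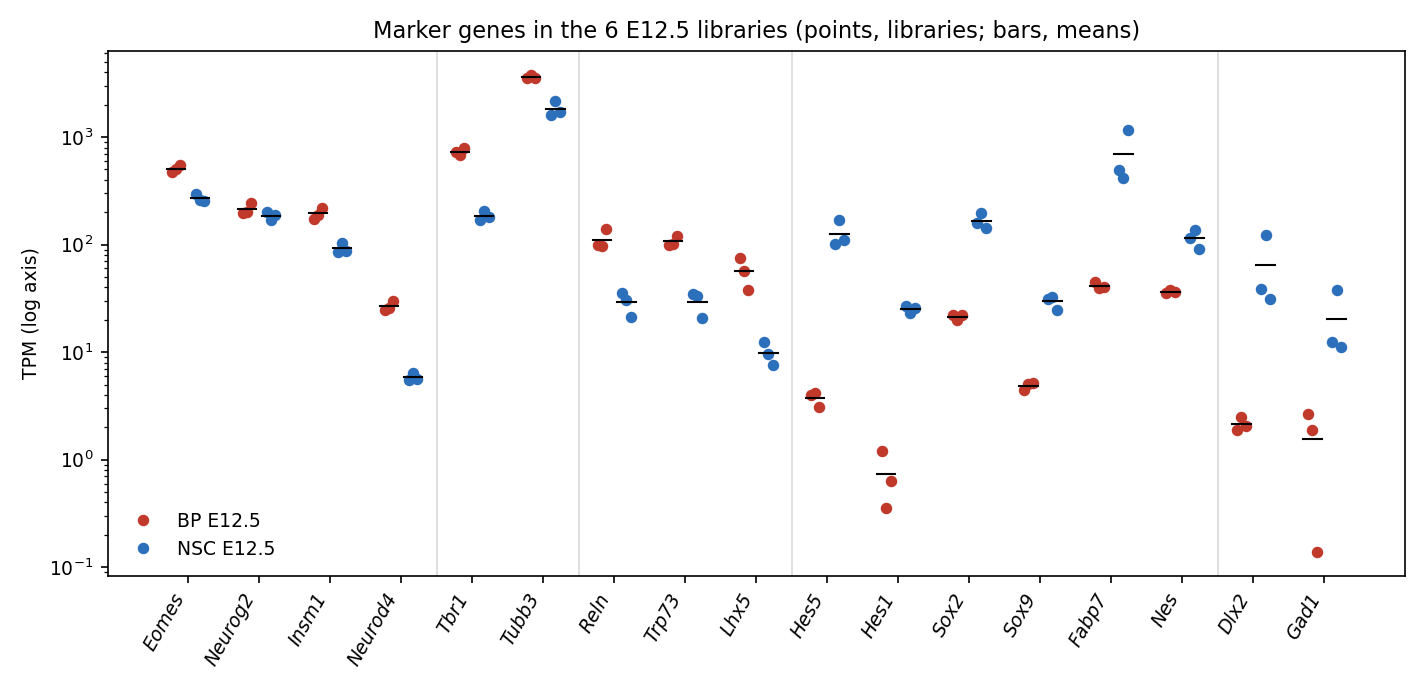
TPM on a log axis (y axis) in each E12.5 library for 17 genes (x axis), with points for libraries, bars for means and BP left of NSC for each gene. BP points lie above NSC points for Eomes, Insm1, Neurod4, Tbr1, Tubb3, Reln, Trp73 and Lhx5 and overlap with them for Neurog2. They lie below NSC points for Hes5, Hes1, Sox2, Sox9, Fabp7, Nes, Dlx2 and Gad1.

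Radial glial genes were lower in BP. Of 26 tested, 18 fell and 1 rose, with a median of -1.55 against 0.198 for all genes. Of the 26, 2 passed the filter through NSC alone. The length-adjusted fit also counted 18 and 1, and the fit without NSC library 3 counted 19 and 0. Sox2, which keeps neural stem cells proliferative, had 22.1, 20.04 and 22.2 TPM in BP, against 160.0, 199 and 141 TPM in NSC (log2 difference -2.89 ± 0.18 SE, adjusted p = 4.2e-19). Slc1a3, the glial glutamate transporter, had 1.23, 1.47 and 1.12 TPM in BP, against 20.2, 27.7 and 19.7 TPM in NSC. Fabp7, the brain fatty acid binding protein of radial glia, had 44.6, 39.7 and 40.0 TPM in BP, against 499, 418 and 1176 TPM in NSC, with NSC library 3 far above the other NSC libraries and all NSC libraries above all BP libraries. The regional factor Pax6, which also drives neurogenesis, had 62.0, 53.1 and 46.3 TPM in BP, against 117, 141 and 100.2 TPM in NSC (log2 difference -1.13 ± 0.19 SE, adjusted p = 1.03e-06). Nestin, encoded by Nes, had 35.4, 37.6 and 36.6 TPM in BP, against 115.3, 136 and 91.3 TPM in NSC, and vimentin, the other intermediate filament of these cells, had 768, 807 and 765 TPM in BP, against 1085, 1149 and 1103 TPM in NSC and was not called (-0.51 ± 0.19 SE on the log2 scale, adjusted p = 0.0169). Vimentin transcript was thus abundant in the sorted BP while that of the transporter and the Sox factor was low. The member that rose was Emx2, a homeobox gene of caudal and medial cortex, at 119, 117 and 123 TPM in BP, against 58.2, 61.1 and 44.6 TPM in NSC; its difference of 1.13 on the log2 scale was 0.99 without NSC library 3, just below the size required for a call.

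Notch signalling genes are given by role. Of 4 receptors, 2 fell: Notch2 had 1.32, 1.73 and 2.70 TPM in BP, against 15.9, 9.84 and 7.21 TPM in NSC (log2 difference -2.0 ± 0.20 SE, adjusted p = 2.56e-12). Notch3 had 2.05, 1.96 and 2.84 TPM in BP, against 17.1, 18.2 and 7.50 TPM in NSC (log2 difference -2.14 ± 0.21 SE, adjusted p = 2.55e-12). Notch1, the main receptor of radial glia, had 19.9, 20.5 and 23.9 TPM in BP, against 42.9, 45.3 and 24.8 TPM in NSC and was not called (-0.74 ± 0.21 SE on the log2 scale, adjusted p = 0.00154), with NSC library 3 close to the BP values; it was called lower in the length-adjusted fit (-1.497) and without NSC library 3. Of 8 ligand genes, 5 rose and none fell, and 4 rose with the length adjustment. Dll3, a divergent ligand that acts mostly inside the cell, had 104.6, 120.4 and 125.2 TPM in BP, against 31.6, 55.4 and 38.8 TPM in NSC (log2 difference 1.49 ± 0.16 SE, adjusted p = 3.84e-11). Jag2, a Jagged ligand, had 20.3, 20.04 and 19.2 TPM in BP, against 6.26, 7.03 and 3.43 TPM in NSC. Jag1 had 12.4, 10.6 and 11.8 TPM in BP, against 4.56, 5.69 and 2.92 TPM in NSC, the member whose call was lost with the length adjustment (0.75). Dner, a neuronal protein with Notch ligand features, had 206, 195 and 191 TPM in BP, against 49.7, 66.1 and 41.8 TPM in NSC, and the imprinted Dlk1, a noncanonical ligand, had 99.9, 82.0 and 45.6 TPM in BP, against 13.8, 43.2 and 10.3 TPM in NSC. Dll1, the ligand that proneural factors switch on directly, had 142, 158 and 170.4 TPM in BP, against 120.4, 124 and 99.7 TPM in NSC, a difference of 0.45 ± 0.14 SE on the log2 scale, adjusted p = 0.00399, which was not called. The 5 called ligands thus did not include it.

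Targets and nuclear factors of the pathway numbered 11, of which 5 fell and 2 rose, against 5 and 0 with the length adjustment. Of the 11, 2 passed the filter through NSC alone, Hes1 and Hey2, and so had to be lower in BP. Hes1, the oscillating repressor of proneural genes, had 1.20, 0.359 and 0.635 TPM in BP, against 26.98, 23.2 and 25.8 TPM in NSC (log2 difference -3.95 ± 0.28 SE, adjusted p = 8.97e-17). Hey2 had 0.0768, 0.155 and 0.731 TPM in BP, against 5.01, 2.53 and 3.23 TPM in NSC. Nrarp, a feedback inhibitor that binds the receptor fragment, had 8.60, 11.52 and 10.6 TPM in BP, against 48.4, 46.5 and 42.9 TPM in NSC (log2 difference -2.07 ± 0.18 SE, adjusted p = 8.14e-14). For these targets every BP library lay below every NSC library, where 67.8% of all genes tested did not overlap in either direction. RBPJ itself, the DNA-binding partner, had 124, 115.1 and 123 TPM in BP, against 67.6, 67.0 and 46.1 TPM in NSC, and the coactivator Maml3 had 22.5, 25.2 and 22.97 TPM in BP, against 10.04, 12.6 and 5.63 TPM in NSC; both were called higher in the main comparison and neither after length adjustment (0.52 and 0.60). Among 19 genes of receptor processing, 2 rose, a share near the 11.6% called higher among all genes, and none did with the length adjustment. A single gene fell, a share near the 5.42% called lower among all genes: it was Lfng, the glycosyltransferase that tunes which ligand a receptor answers, at 4.29, 6.69 and 6.23 TPM in BP, against 29.0, 27.1 and 27.2 TPM in NSC (log2 difference -2.11 ± 0.23 SE, adjusted p = 2.55e-11).

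The upstream sequences of 3 Notch targets that fell, and of 2 neuronal bHLH genes that rose, are shown because the core TGGGAA recognised by RBPJ is short enough to be read by eye. Of 7 genes looked up, 5 had an entry among the RefSeq promoters of GRCm38.p6. Each line gives the 250 bases before the gene's start, 5′ to 3′ on the gene's strand, with each match to TGGGAA or its reverse complement TTCCCA in capitals. The regions are chr4:154960673-154960922 (plus strand, Hes5), chr10:30842784-30843033 (minus strand, Hey2), chr2:25180508-25180757 (plus strand, Nrarp), chr1:172057597-172057846 (minus strand, Nhlh1) and chr3:102009895-102010144 (plus strand, Nhlh2).
Hes5: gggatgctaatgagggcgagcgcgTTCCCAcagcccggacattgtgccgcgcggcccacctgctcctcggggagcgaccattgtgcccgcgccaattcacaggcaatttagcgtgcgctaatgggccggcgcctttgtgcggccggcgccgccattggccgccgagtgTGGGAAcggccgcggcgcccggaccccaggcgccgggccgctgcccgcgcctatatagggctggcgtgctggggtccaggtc
Hey2: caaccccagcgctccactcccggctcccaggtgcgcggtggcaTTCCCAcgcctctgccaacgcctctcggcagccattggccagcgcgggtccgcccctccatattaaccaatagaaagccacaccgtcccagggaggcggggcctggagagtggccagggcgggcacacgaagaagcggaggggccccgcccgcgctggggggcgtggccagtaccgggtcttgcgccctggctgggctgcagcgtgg
Nrarp: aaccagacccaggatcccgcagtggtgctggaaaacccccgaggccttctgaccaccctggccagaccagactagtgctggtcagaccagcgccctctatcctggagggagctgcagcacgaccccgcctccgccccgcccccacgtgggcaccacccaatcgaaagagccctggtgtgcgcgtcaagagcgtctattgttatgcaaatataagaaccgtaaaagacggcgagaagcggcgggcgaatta
Nhlh1: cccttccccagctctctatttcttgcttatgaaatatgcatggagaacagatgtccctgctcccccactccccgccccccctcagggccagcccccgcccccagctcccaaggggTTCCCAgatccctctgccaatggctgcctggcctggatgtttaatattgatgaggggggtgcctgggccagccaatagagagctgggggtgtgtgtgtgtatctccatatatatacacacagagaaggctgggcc
Nhlh2: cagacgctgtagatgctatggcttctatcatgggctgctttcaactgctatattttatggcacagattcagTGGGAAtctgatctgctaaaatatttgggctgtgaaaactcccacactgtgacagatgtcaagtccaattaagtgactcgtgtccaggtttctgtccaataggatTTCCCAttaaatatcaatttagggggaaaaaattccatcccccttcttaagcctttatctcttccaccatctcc
Hes5 held 2 matches, 226 and 82 bases before its start, and Hey2 held 1, 207 bases before; Nrarp held none in this window. Nhlh1 held 1 match and Nhlh2 held 2, 179 and 74 bases before. Of all 32851 promoters, 21.6% held at least 1 match in a window of this length, and genes that fell and genes that rose both had them.

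Proneural and neuronal bHLH genes were mixed. Of 16 tested, 3 rose and 2 fell; 4 and 2 did with the length adjustment. Neurog2, the main proneural factor of the dorsal cortex, had 198, 203 and 246 TPM in BP, against 199, 168 and 189.9 TPM in NSC and was not called (0.21 ± 0.21 SE on the log2 scale, adjusted p = 0.366); its values overlapped between the groups. Downstream members were higher: Neurod4 had 24.7, 25.9 and 30.2 TPM in BP, against 5.47, 6.402 and 5.64 TPM in NSC (log2 difference 2.03 ± 0.22 SE, adjusted p = 5.54e-11), Nhlh1 had 305, 336 and 396 TPM in BP, against 114, 114 and 106 TPM in NSC (log2 difference 1.62 ± 0.17 SE, adjusted p = 1.52e-11). Nhlh2 had 290.0, 261 and 213 TPM in BP, against 64.7, 53.1 and 53.2 TPM in NSC (log2 difference 2.13 ± 0.23 SE, adjusted p = 2.64e-11). Nhlh1 and Nhlh2 encode closely related factors that appear as progenitors leave the cycle. Neurod6, which marks glutamatergic cortical neurons, had 306, 308 and 511 TPM in BP, against 433, 338 and 382 TPM in NSC, with no call (-0.07 ± 0.23 SE on the log2 scale, adjusted p = 0.792) and overlapping groups. Id3, an inhibitor of bHLH factors, fell, at 1.53, 1.34 and 0.911 TPM in BP, against 18.4, 15.9 and 10.4 TPM in NSC.

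Of 18 basal progenitor genes, 4 rose and none fell, a share above the 11.6% called higher among all genes but with a median of only 0.56; 3 rose with the length adjustment, and 3 without NSC library 3. Insm1, the zinc finger factor that drives delamination to the basal side, had 174, 190.4 and 221 TPM in BP, against 86.3, 104 and 87.6 TPM in NSC (log2 difference 1.07 ± 0.13 SE, adjusted p = 5.99e-10), and its length-adjusted difference of 0.93 was not called. Besides Neurod4 and Dll3, Elavl4, a neuronal RNA-binding protein, had 297, 229 and 285 TPM in BP, against 138, 146 and 115.1 TPM in NSC. Gadd45g, a growth arrest gene induced by proneural factors, had 217, 228 and 248 TPM in BP, against 379.7, 324 and 457 TPM in NSC and was not called (-0.73 ± 0.20 SE on the log2 scale, adjusted p = 0.00108), with all BP libraries below all NSC libraries. Btbd17 had 48.2, 60.05 and 51.7 TPM in BP, against 39.9, 44.0 and 44.98 TPM in NSC. Hes6, an antagonist of Hes1, had 258, 299.6 and 274 TPM in BP, against 359, 335 and 406 TPM in NSC; neither was called. In all, 14 of the 18 genes were not called, and transcripts of this list were present in the Hes5::GFP cells too.

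In the pan-neuronal cytoskeleton and migration list, 17 of 29 genes rose and none fell, with a median of 1.23; 16 rose with the length adjustment and 16 without NSC library 3. Dcx, the microtubule protein of migrating neurons, had 723, 721 and 837 TPM in BP, against 199.8, 261 and 99.2 TPM in NSC (log2 difference 2.13 ± 0.27 SE, adjusted p = 2.36e-09). Ina, the neurofilament alpha-internexin, had 719, 681 and 625 TPM in BP, against 121, 177 and 97.6 TPM in NSC (log2 difference 2.39 ± 0.26 SE, adjusted p = 3.35e-11), the largest difference of the list. Stmn2, a tubulin-binding growth cone protein, had 893, 858 and 835 TPM in BP, against 267, 433 and 347 TPM in NSC. These 3 genes were higher in every BP library than in any NSC library, where 67.8% of all genes tested did not overlap in either direction. Tubb3, neuronal beta-tubulin, had 3543, 3813 and 3514 TPM in BP, against 1611, 2169.6 and 1702 TPM in NSC and lay just below the size required for a call (0.998 ± 0.14 SE on the log2 scale, adjusted p = 2.15e-08), while it was called with the length adjustment (1.14). NSC libraries held these transcripts as well, with at least 1611 TPM of Tubb3.

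Of 27 transcription factors of cortical neurons, 12 rose and none fell; 6 rose and 1 fell with the length adjustment. Tbr1, the T-box factor that follows Eomes in early-born deep layer neurons, had 723, 686 and 784 TPM in BP, against 169, 204 and 181 TPM in NSC (log2 difference 1.98 ± 0.19 SE, adjusted p = 4.51e-13). The repressors Scrt1 and Scrt2, which promote detachment from the ventricular surface, had 179, 178 and 190.0 TPM in BP, against 49.3, 72.7 and 34.4 TPM in NSC and 311, 330.3 and 382 TPM in BP, against 115.3, 142 and 91.7 TPM in NSC. St18, a zinc finger factor related to Myt1, had 117, 108 and 114 TPM in BP, against 27.3, 35.5 and 15.1 TPM in NSC. Sox11, which acts after proneural factors, had 463, 529.7 and 637 TPM in BP, against 209, 219.5 and 91.9 TPM in NSC. All 5 also kept their calls in both other fits. Fezf2 and Neurod2, factors of projection neurons, were not called: Fezf2 had 82.1, 85.4 and 108 TPM in BP, against 128, 86.8 and 94.2 TPM in NSC, with overlapping groups.

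Of 32 synapse and excitability genes, 18 rose and 1 fell; the length-adjusted fit counted 12 and 1, and the fit without NSC library 3 counted 15 and 1. Syt1, the calcium sensor of vesicle release, had 46.5, 46.6 and 51.2 TPM in BP, against 12.7, 19.7 and 7.33 TPM in NSC. Slc17a6, the vesicular glutamate transporter VGLUT2, had 185.2, 157 and 151 TPM in BP, against 55.9, 53.6 and 48.3 TPM in NSC (log2 difference 1.63 ± 0.20 SE, adjusted p = 9.37e-10). Scn3a, the embryonic sodium channel, had 62.2, 42.7 and 54.8 TPM in BP, against 9.82, 18.4 and 4.78 TPM in NSC (log2 difference 2.33 ± 0.29 SE, adjusted p = 1.75e-09). The member that fell was Gabra2, a GABA-A receptor subunit, at 4.01, 2.65 and 3.44 TPM in BP, against 12.3, 8.10 and 6.41 TPM in NSC. Of 33 axon growth and guidance genes, 15 rose and none fell, and 10 rose with the length adjustment. Dcc, the netrin receptor, had 144.5, 170.3 and 234 TPM in BP, against 28.5, 41.9 and 6.45 TPM in NSC (log2 difference 3.09 ± 0.37 SE, adjusted p = 5.63e-10), with NSC library 3 far below the other NSC libraries. Nrp2, a semaphorin receptor, had 126, 116 and 119 TPM in BP, against 28.9, 29.2 and 14.9 TPM in NSC. L1cam, an axonal adhesion molecule, had 144.7, 147 and 158 TPM in BP, against 50.5, 57.9 and 27.4 TPM in NSC. The length-adjusted differences were 2.30 for Dcc, 1.73 for Nrp2 and 1.32 for L1cam, all called.

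**Figure D3:**
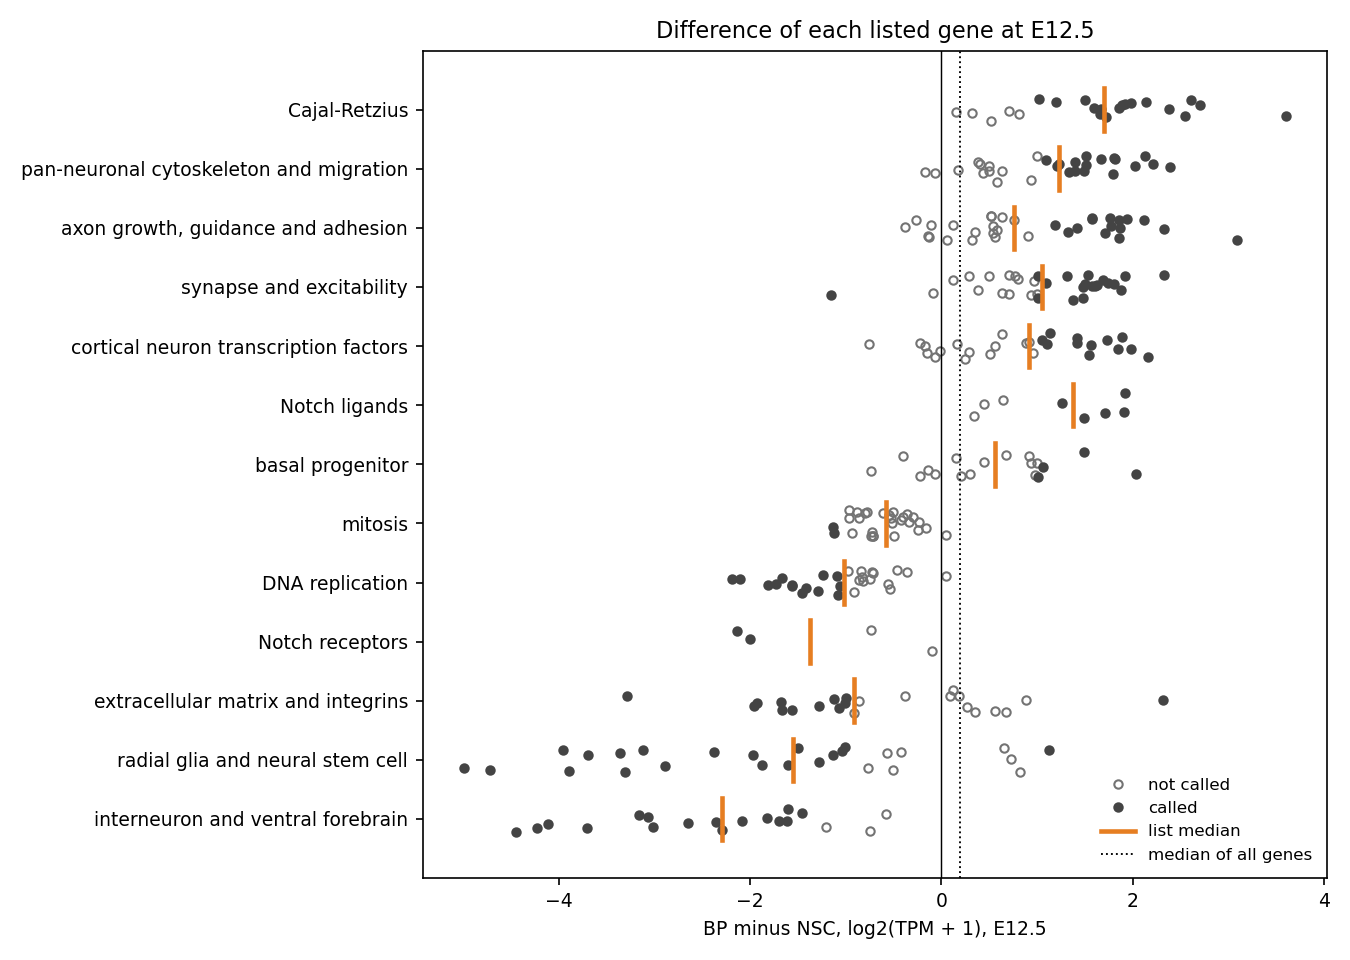
Log2(TPM + 1) difference, BP minus NSC at E12.5 (x axis), of each tested gene in 13 lists (y axis); filled points were called, open points were not, orange bars are list medians and the dotted line is the median of all genes, 0.198. The Cajal-Retzius list has the highest median shown, 1.70, and the interneuron and ventral forebrain list the lowest, -2.30.

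Cajal-Retzius genes gave the highest median of the lists, 1.70: of 22 tested, 17 rose and none fell, and 17 rose with the length adjustment and 16 without NSC library 3. Of the 22, 1 passed the filter through BP alone. Reln, the secreted signal of these cells, had 98.5, 96.9 and 138 TPM in BP, against 35.1, 30.6 and 21.2 TPM in NSC (log2 difference 1.91 ± 0.29 SE, adjusted p = 8.57e-08). Trp73, a p53 relative that marks Cajal-Retzius cells of the cortical hem, had 100, 102 and 120.0 TPM in BP, against 34.6, 33.3 and 20.7 TPM in NSC (log2 difference 1.85 ± 0.24 SE, adjusted p = 4.27e-09). The LIM homeobox gene Lhx1 had 44.9, 38.0 and 31.7 TPM in BP, against 7.21, 6.13 and 3.41 TPM in NSC. Lhx5 had 74.4, 57.0 and 38.1 TPM in BP, against 12.4, 9.58 and 7.54 TPM in NSC. The EBF family, helix-loop-helix factors of early neurons, rose together: Ebf1 had 29.5, 26.5 and 33.8 TPM in BP, against 5.96, 14.2 and 4.51 TPM in NSC, Ebf2 had 75.6, 91.9 and 103 TPM in BP, against 6.34, 13.54 and 2.87 TPM in NSC. Ebf3 had 101, 94.6 and 89.9 TPM in BP, against 17.496, 17.9 and 11.7 TPM in NSC. Barhl2, a homeobox gene of diencephalic and early cortical neurons, had 90.8, 93.0 and 85.5 TPM in BP, against 9.04, 24.7 and 9.55 TPM in NSC. Calb2, the calcium buffer calretinin, had 116, 121 and 123 TPM in BP, against 21.8, 43.0 and 55.5 TPM in NSC. In each of these 9 genes, named after their values were seen, all BP libraries exceeded all NSC libraries. Among all genes tested, 67.8% did not overlap between the groups in either direction. Cdkn1a, the cell cycle inhibitor p21, was in the list too, at 96.4, 126 and 129.8 TPM in BP, against 50.2, 41.3 and 31.9 TPM in NSC (log2 difference 1.502 ± 0.21 SE, adjusted p = 2.09e-08). Nr2f2 varied within both groups, with 299.8, 196 and 79.1 TPM in BP, against 109, 24.9 and 59.4 TPM in NSC, BP library 3 lying below NSC library 1. The Zic genes of the medial wall and septum were not called: Zic1 had 103, 83.4 and 114 TPM in BP, against 35.4, 92.4 and 67.4 TPM in NSC. Zic4 had 18.7, 15.0 and 25.7 TPM in BP, against 7.71, 31.2 and 14.3 TPM in NSC. Of 11 subplate and preplate genes, 4 rose and 2 fell, against 3 and 2 in both other fits: Nxph4, a neurexin ligand of subplate cells, had 324, 336 and 346 TPM in BP, against 79.1, 96.8 and 101 TPM in NSC (log2 difference 1.86 ± 0.18 SE, adjusted p = 1.38e-12), while Lpar1, a lysophosphatidic acid receptor, had 3.07, 2.15 and 3.27 TPM in BP, against 20.6, 16.7 and 16.4 TPM in NSC (log2 difference -2.31 ± 0.26 SE, adjusted p = 5.82e-11).

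The Cajal-Retzius difference was smaller after E12.5. The list's summed level ran from 2279 to 2460 TPM in the BP libraries of E12.5, from 1223 to 1441 TPM at E13.5 and from 865.6 to 922.8 TPM at E14.5; in NSC it ran from 621.8 to 760.6, from 683.5 to 801.2 and from 519.8 to 576.4 TPM at the same stages. The ranges of BP at the 3 stages did not overlap. The median difference over the list was 1.70, 0.50 and 0.07 at E12.5, E13.5 and E14.5. In the test of whether the E12.5 difference itself exceeded the mean of the E13.5 and E14.5 differences, 15 of 22 genes were called higher and none lower, and 12 of 22 with the length adjustment. Among all genes, 1177 were called higher (8.69%) and 139 lower (1.03%); with the length adjustment 569 were called (4.25%), 289 higher (2.16%) and 280 lower (2.09%). Values at later stages are means of 3 BP and 4 NSC libraries at E13.5 and of 3 and 3 at E14.5. Ebf2 averaged 16.1 TPM in BP and 9.87 TPM in NSC at E13.5 and 4.07 TPM in BP and 2.22 TPM in NSC at E14.5 (log2 difference between stages 2.96 ± 0.30 SE, adjusted p = 9.78e-11). Lhx1 averaged 7.60 TPM in BP and 5.36 TPM in NSC at E13.5 and 2.77 TPM in BP and 3.57 TPM in NSC at E14.5 (log2 difference between stages 2.56 ± 0.31 SE, adjusted p = 8.09e-09). Calb2 averaged 61.7 TPM in BP and 18.7 TPM in NSC at E13.5 and 31.7 TPM in BP and 11.9 TPM in NSC at E14.5, and its change between stages was not called (0.18 ± 0.32 SE).

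**Figure D4:**
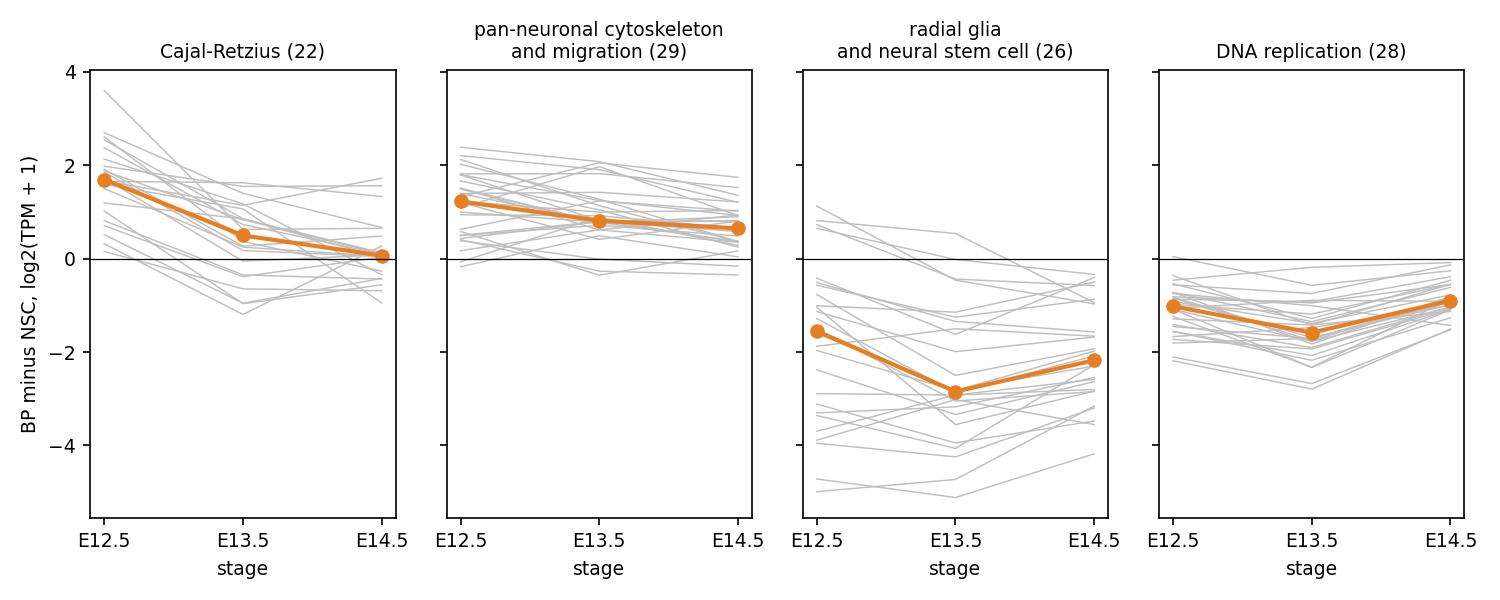
Log2(TPM + 1) difference, BP minus NSC (y axis), at E12.5, E13.5 and E14.5 (x axis) in 4 lists; grey lines are genes, orange points are list medians and the number of genes is in each title. The Cajal-Retzius median runs from 1.70 through 0.50 to 0.07, while that of radial glial genes is -1.55, -2.85 and -2.18.

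The largest single differences in the positive direction, among genes whose higher group averaged 20 TPM or more and whose groups did not overlap, were led by Akr1b8, an aldo-keto reductase, at 20.6, 24.2 and 20.6 TPM in BP, against 0.331, 0.0930 and 0.623 TPM in NSC (log2 difference 4.09 ± 0.21 SE, adjusted p = 6e-22). Akr1b8 passed the filter through BP alone and so had to be higher in BP, and its place in this ranking is a description. Samd3 had 115.1, 104.6 and 74.6 TPM in BP, against 3.56, 10.2 and 4.61 TPM in NSC. Fezf1, a zinc finger repressor of the early forebrain, had 136, 116 and 52.2 TPM in BP, against 5.97, 11.8 and 3.12 TPM in NSC (log2 difference 3.73 ± 0.32 SE, adjusted p = 4.38e-14), with BP library 3 below the other BP libraries. Mab21l1 had 71.0, 63.4 and 55.9 TPM in BP, against 4.15, 7.92 and 1.90 TPM in NSC. Uncx, a paired-type homeobox gene, had 150.01, 139 and 75.9 TPM in BP, against 10.7, 16.8 and 10.6 TPM in NSC. Rasgrp1, an activator of Ras, had 86.4, 80.9 and 88.6 TPM in BP, against 3.33, 15.8 and 8.05 TPM in NSC. Chrna4, a nicotinic acetylcholine receptor subunit, had 55.6, 54.3 and 25.6 TPM in BP, against 3.56, 6.16 and 1.69 TPM in NSC. Slc27a2, a fatty acid transport protein, Resp18 and Tmem200a completed the 12 with Ebf2 and Dcc, at differences of 2.86 to 2.97. BP library 3 was the lowest of the BP libraries for Samd3, Fezf1, Mab21l1, Uncx and Chrna4, and also for Nr2f2, Lhx1 and Lhx5. All 12 were called in both other fits.

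Among the genes that fell most, several belong to radial glia or Notch (Hes5, Hes1 and Fabp7). Aldoc, the glycolytic aldolase of glia, had 1.74, 1.51 and 0.882 TPM in BP, against 114, 42.9 and 81.3 TPM in NSC (log2 difference -4.99 ± 0.29 SE, adjusted p = 4.91e-20). Rlbp1, a retinaldehyde binding protein, had 0.816, 1.22 and 1.29 TPM in BP, against 39.6, 25.4 and 35.3 TPM in NSC. Mt1, a metallothionein, had 2.18, 3.66 and 3.02 TPM in BP, against 69.4, 36.1 and 53.9 TPM in NSC. Rgcc, a regulator of the cell cycle, had 0.640, 0.4303 and 2.28 TPM in BP, against 20.6, 36.4 and 34.0 TPM in NSC. Cyr61, a matricellular target of YAP, had 0.773, 0.519 and 0.574 TPM in BP, against 34.2, 20.2 and 21.0 TPM in NSC (log2 difference -3.97 ± 0.32 SE, adjusted p = 3.24e-15). Ttr, transthyretin of the choroid plexus, had 1.29, 0.432 and 0.955 TPM in BP, against 102, 59.9 and 41.6 TPM in NSC (log2 difference -5.12 ± 1.05 SE, adjusted p = 2.78e-05), with a wide error. Hes1, Cyr61 and Ttr passed the filter through NSC alone and so had to be lower in BP. Outside the lists of cell type, the serine synthesis enzymes Phgdh and Psat1, held in the integrated stress list, fell: Phgdh had 13.97, 17.3 and 18.6 TPM in BP, against 165.02, 179.6 and 171 TPM in NSC (log2 difference -3.30 ± 0.21 SE, adjusted p = 1.55e-18). Psat1 had 23.3, 26.5 and 26.3 TPM in BP, against 153, 158 and 130.4 TPM in NSC, while Atf4, which regulates both, had 269, 275 and 263 TPM in BP, against 261, 300.0 and 306 TPM in NSC.

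Of 28 DNA replication genes, 14 fell and none rose, with a median of -1.02, and 17 fell with the length adjustment. Mcm3, a subunit of the replicative helicase, had 20.3, 23.02 and 25.4 TPM in BP, against 98.5, 117 and 90.8 TPM in NSC (log2 difference -2.11 ± 0.17 SE, adjusted p = 3.08e-15). Pcna, the polymerase clamp, had 108, 111 and 109 TPM in BP, against 329, 348 and 373 TPM in NSC (log2 difference -1.67 ± 0.13 SE, adjusted p = 1.49e-15). Ung, the uracil glycosylase, had 4.79, 4.94 and 5.13 TPM in BP, against 26.5, 29.0 and 23.1 TPM in NSC. Of 28 mitosis genes, 2 fell and none rose, a share near the 5.42% called lower among all genes. With the length adjustment 7 fell, and 5 fell without NSC library 3, against 6.4% and 5.5% of all genes, so this count turns on the fit. Cenpa, the centromeric histone, had 72.6, 83.2 and 83.4 TPM in BP, against 158, 168 and 200.3 TPM in NSC. Birc5, survivin, had 54.5, 54.4 and 52.3 TPM in BP, against 104, 119 and 136 TPM in NSC. Mki67 had 48.0, 30.7 and 42.8 TPM in BP, against 85.8, 99.9 and 52.7 TPM in NSC and was not called (-0.93 ± 0.26 SE on the log2 scale, adjusted p = 0.00154) but was with the length adjustment (-1.71). Top2a, a topoisomerase that peaks in G2, had 142, 136 and 151 TPM in BP, against 176, 210.4 and 128 TPM in NSC, with overlapping groups. A difference between the replication and mitosis lists was not tested.

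Among 27 G1 regulators, 5 fell and 3 rose (8 and 2 with the length adjustment). The count that rose was near the 11.6% called higher among all genes and is not read as a result about the list. Ccnd3 and Ccne1, G1 cyclins, had 20.8, 20.7 and 23.2 TPM in BP, against 56.3, 60.3 and 47.1 TPM in NSC, and 8.82, 9.61 and 7.22 TPM in BP, against 25.7, 28.7 and 24.1 TPM in NSC. Cdk2, the partner of cyclin E, had 13.2, 18.8 and 17.48 TPM in BP, against 46.5, 47.6 and 40.0 TPM in NSC. Ccnd2, whose transcript is enriched in radial glial endfeet, had 79.1, 95.3 and 106 TPM in BP, against 192, 188 and 78.7 TPM in NSC, uncalled, with NSC library 3 just below the BP libraries; it was called lower in both other fits. Those that rose were Cdkn1a, Rb1 and Gadd45a, all brakes on the cycle: Gadd45a had 72.4, 74.7 and 64.4 TPM in BP, against 26.2, 31.0 and 31.8 TPM in NSC (log2 difference 1.22 ± 0.18 SE, adjusted p = 8.73e-08). Rb1 had 74.4, 66.5 and 82.2 TPM in BP, against 36.5, 36.6 and 29.3 TPM in NSC, a call lost in both other fits. Cdkn1c, the inhibitor p57, had 193, 195 and 199 TPM in BP, against 181, 229 and 243 TPM in NSC, with overlapping groups.

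Genes of interneurons and the ventral forebrain were the lowest list in BP, with a median of -2.30: of 19 tested, 16 fell and none rose, and 17 fell in each of the other fits. Of the 19, 7 passed the filter through NSC alone and so had to be lower in BP, and the count and median are given as a description. Dlx1 and Dlx2, which specify ventral GABAergic progenitors, had 0.543, 1.73 and 0.942 TPM in BP, against 36.3, 108 and 19.8 TPM in NSC, and 1.90, 2.50 and 2.07 TPM in BP, against 39.0, 122 and 31.3 TPM in NSC. NSC library 2 held the highest values of both Dlx genes, and all NSC libraries lay above all BP libraries. Gad1, a GABA-synthesising enzyme, had 2.64, 1.91 and 0.139 TPM in BP, against 12.54, 37.6 and 11.2 TPM in NSC (log2 difference -3.01 ± 0.46 SE, adjusted p = 1.51e-07). Sst, somatostatin, had 0.654, 1.76 and 2.72 TPM in BP, against 52.0, 69.3 and 28.6 TPM in NSC (log2 difference -4.22 ± 0.51 SE, adjusted p = 4.37e-10). Nkx2-1, of the medial ganglionic eminence, had 0.580, 0.896 and 0.157 TPM in BP, against 1.30, 6.32 and 1.52 TPM in NSC, uncalled. The list summed to between 47.97 and 52.6 TPM in BP libraries, against 233.9 to 739.3 TPM in NSC libraries, at E12.5. At E13.5 the sums were 38.86 to 55.61 TPM in BP, against 530.3 to 1389 TPM in NSC. The labelled dorsal tissue of NSC thus carried ventral transcripts in every library of this stage, and their part in the other differences was not tested.

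In both lists of patterning signals given next, more genes were called lower than higher. The counts that rose were near or below the 11.6% called higher among all genes. Of 25 Wnt receptors, targets and modulators, 10 fell and 2 rose (10 and 0 with the length adjustment). Of the 25, 3 passed the filter through NSC alone. Wnt7a, made by radial glia, had 4.45, 2.78 and 3.96 TPM in BP, against 18.7, 24.9 and 18.8 TPM in NSC (log2 difference -2.21 ± 0.16 SE, adjusted p = 9.31e-17), whereas its paralogue Wnt7b had 284, 305 and 278 TPM in BP, against 158, 119 and 108 TPM in NSC (log2 difference 1.18 ± 0.16 SE, adjusted p = 4.96e-09); the adjusted difference of Wnt7b, 0.99, was not called. Fzd9, a receptor, had 1.37, 1.49 and 0.914 TPM in BP, against 28.8, 14.4 and 18.0 TPM in NSC. Sfrp1, a secreted antagonist, had 28.2, 29.4 and 38.5 TPM in BP, against 127, 173 and 111 TPM in NSC (log2 difference -2.05 ± 0.17 SE, adjusted p = 1.33e-14). Of 18 genes of the hem, antihem and choroid, 7 fell and 2 rose (9 and 1 with the adjustment), with 7 of the 18 past the filter through NSC alone. Sfrp2 of the antihem had 4.84, 5.13 and 3.14 TPM in BP, against 27.8, 26.4 and 21.8 TPM in NSC. Rspo1, a Wnt agonist, had 0.982, 0.590 and 2.68 TPM in BP, against 15.48, 15.6 and 10.6 TPM in NSC. Dbx1, a homeobox gene of the ventral pallium, a source of Cajal-Retzius cells, rose, at 15.6, 15.1 and 18.2 TPM in BP, against 2.02, 6.07 and 1.49 TPM in NSC (log2 difference 2.19 ± 0.23 SE, adjusted p = 1.31e-11). Wnt3a, the hem signal, was near the limit of the filter, at 0.0709, 0.191 and 0.337 TPM in BP, against 2.97, 2.71 and 1.85 TPM in NSC.

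In the FGF and ERK list, 5 of 17 fell and 3 rose, and both other fits gave these counts. Of the 17, 2 passed the filter through NSC alone and 1 through BP alone. The receptor Fgfr3 had 17.1, 15.0 and 16.3 TPM in BP, against 95.0, 55.1 and 61.7 TPM in NSC. Fgfr2 had 9.0003, 7.99 and 6.995 TPM in BP, against 31.2, 31.5 and 21.4 TPM in NSC. Etv5, an ERK target, had 0.937, 1.62 and 1.73 TPM in BP, against 5.22, 15.7 and 8.37 TPM in NSC, while Etv1, of the same family, had 101, 103 and 141 TPM in BP, against 5.49, 37.8 and 20.1 TPM in NSC (log2 difference 2.72 ± 0.32 SE, adjusted p = 2.64e-10) and Dusp4, an ERK phosphatase, had 519, 579 and 743 TPM in BP, against 114, 192 and 77.0 TPM in NSC (log2 difference 2.34 ± 0.22 SE, adjusted p = 6.62e-13). Members of the list thus moved in both directions. In the BMP list 5 of 16 fell and 2 rose (5 and 1 adjusted), with the target Id1 at 4.52, 5.37 and 3.65 TPM in BP, against 19.7, 16.2 and 17.2 TPM in NSC and Bmpr2, a receptor with a very long transcript, at 33.7, 36.3 and 42.3 TPM in BP, against 13.95, 14.9 and 3.26 TPM in NSC. In the Hippo list 5 of 19 fell and 2 rose (6 and 1 adjusted), with 2 of the 19 past the filter through NSC alone. The coactivator Yap1 had 2.70, 2.99 and 4.89 TPM in BP, against 38.1, 38.4 and 27.9 TPM in NSC. Wwtr1 had 1.61, 1.91 and 1.66 TPM in BP, against 16.9, 15.53 and 13.3 TPM in NSC. Of 13 hedgehog and cilium genes, 2 fell, Gas1, a hedgehog coreceptor, at 7.28, 8.89 and 10.3 TPM in BP, against 94.8, 121 and 106 TPM in NSC and Smo, the signal transducer, at 29.4, 31.5 and 36.4 TPM in BP, against 75.3, 77.5 and 50.8 TPM in NSC, and 1 rose. With the length adjustment 5 fell and none rose. The counts that rose in the BMP, Hippo and hedgehog lists were near or below the 11.6% called higher among all genes.

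Matrix and polarity genes differed in which members moved. Of 23 extracellular matrix genes, 11 fell and 1 rose (13 and 1 adjusted), with 6 past the filter through NSC alone. Sparc had 5.37, 3.67 and 3.95 TPM in BP, against 52.9, 58.9 and 41.7 TPM in NSC (log2 difference -3.29 ± 0.28 SE, adjusted p = 3.33e-14), and the gene that rose was Vcan, the proteoglycan versican, at 306, 228 and 242 TPM in BP, against 47.8, 95.7 and 28.1 TPM in NSC (log2 difference 2.32 ± 0.24 SE, adjusted p = 8.55e-12). Of 26 apical polarity and junction genes, 8 rose and 2 fell, with 4 and 2 after length adjustment and 5 and 2 without NSC library 3. The count that fell was near the 5.42% called lower among all genes. Crb2, the apical Crumbs protein, fell, at 1.89, 1.87 and 1.97 TPM in BP, against 14.3, 14.7 and 9.22 TPM in NSC (log2 difference -2.21 ± 0.19 SE, adjusted p = 5.46e-14). Plekha7, an adherens junction protein, also fell, at 2.55, 2.88 and 3.55 TPM in BP, against 11.9, 12.3 and 7.68 TPM in NSC. Crb1, a paralogue of Crb2, rose, at 8.92, 8.68 and 7.39 TPM in BP, against 2.71, 4.5005 and 1.30 TPM in NSC, and the call was lost with length adjustment (0.82). Cadherin Cdh2, which holds radial glia to one another, had 269, 251 and 266 TPM in BP, against 174.6, 198 and 133 TPM in NSC and was not called (0.65 ± 0.09 SE on the log2 scale, adjusted p = 2.49e-08).

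Among 22 cortical patterning genes, 4 rose and 4 fell in the main and the length-adjusted fit. Lhx9, a LIM homeobox gene of the thalamus and early cortical neurons, had 302, 266 and 251 TPM in BP, against 41.6, 53.0 and 31.5 TPM in NSC (log2 difference 2.70 ± 0.27 SE, adjusted p = 3.48e-12), beside Fezf1, Emx2 and Nr2f2. Those that fell included Pax6, Sp8 and Sp5: Sp8, of the rostral and medial telencephalon, had 2.14, 2.94 and 4.78 TPM in BP, against 12.2, 25.4 and 14.7 TPM in NSC. Emx1, of the dorsal pallium, had 198, 218 and 240.5 TPM in BP, against 239, 198 and 252 TPM in NSC, was not called and overlapped between the groups. Lhx2, the cortical selector, had 858, 951 and 984 TPM in BP, against 673, 555 and 472 TPM in NSC and was not called (0.73 ± 0.16 SE on the log2 scale, adjusted p = 5.18e-05).

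The counts of chromatin and splicing genes changed with the fit. Of 32 chromatin genes, 7 rose, but 2 with the length adjustment and 3 without NSC library 3, against 11.6%, 5.32% and 7% of all genes called higher. The 2 included Actl6b, the neuronal BAF subunit BAF53b, at 223, 221 and 196 TPM in BP, against 99.4, 106 and 75.2 TPM in NSC. Of 22 neural splicing and RNA-binding genes, 11 rose, but 4 and 8 in the other fits. Nova2, a neuronal splicing factor, had 142, 130.1 and 144 TPM in BP, against 43.1, 47.2 and 28.2 TPM in NSC (log2 difference 1.82 ± 0.18 SE, adjusted p = 1.72e-12; 1.11 adjusted). Srrm4, which drives neuronal microexons, had 115.1, 106 and 131 TPM in BP, against 41.4, 39.3 and 24.5 TPM in NSC. Ptbp1, the repressor of neuronal exons, had 92.4, 111 and 124.6 TPM in BP, against 195, 194 and 135.3 TPM in NSC and was not called (-0.66 ± 0.12 SE on the log2 scale, adjusted p = 6.81e-06). In metabolism, 3 of 20 glycolysis genes fell, Aldoc, Hk2 and Ldha, and 1 rose, the hexokinase Hk1, at 45.3, 49.8 and 49.7 TPM in BP, against 27.4, 28.4 and 16.6 TPM in NSC, a call lost in both other fits. Ldha, lactate dehydrogenase A, had 206, 220.1 and 209 TPM in BP, against 683, 579 and 712 TPM in NSC (log2 difference -1.62 ± 0.11 SE, adjusted p = 4.96e-18). Of 21 cholesterol synthesis genes, 1 rose and none fell, Hsd17b7 at 16.7, 14.7 and 17.4 TPM in BP, against 7.58, 9.48 and 5.69 TPM in NSC, also lost in both other fits. Of 17 integrated stress and unfolded protein response genes, Phgdh and Psat1 were the 2 that fell and none rose. Of 14 heterochronic genes, which time developmental stages, 3 fell and 2 rose: Hmga2, an early progenitor chromatin protein, had 11.3, 10.7 and 11.1 TPM in BP, against 20.05, 75.1 and 30.2 TPM in NSC, with NSC library 2 far above the rest. Lin28b, which blocks let-7, had 11.2, 8.28 and 8.52 TPM in BP, against 2.62, 6.05 and 2.56 TPM in NSC. The counts that rose in the glycolysis, cholesterol and heterochronic lists were near or below the 11.6% called higher among all genes.

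Markers of cells that a sort could carry over moved with the groups in some lists. Of 13 meningeal and fibroblast genes, 8 passed the filter, 5 of them through NSC alone, so that the calls of the list are in part set by the filter and are not read here. The list summed to 5.938 to 6.66 TPM in BP, against 24.1 to 56.23 TPM in NSC, with the defining Dcn at 0, 0.0716 and 0.127 TPM in BP, against 2.93, 2.42 and 2.52 TPM in NSC and Col1a2 at 0.0733, 0.246 and 0.174 TPM in BP, against 10.4, 2.95 and 1.70 TPM in NSC. Of 13 erythroid genes, 7 passed the filter, all globins, and 1 rose, the embryonic Hbb-bh1. The most abundant, Hbb-y, had 43.6, 94.8 and 4.23 TPM in BP, against 59.8, 96.6 and 18.6 TPM in NSC, with overlapping groups. Of 15 endothelial and pericyte genes, 3 passed the filter, and of 13 microglial genes, 2 did, and none was called. Of 9 astroglial genes that passed the filter, 5 fell and 1 rose, the glutamate transporter Slc1a2; among those that fell was Mlc1 at 0.0703, 0.330 and 0.167 TPM in BP, against 10.3, 13.4 and 6.18 TPM in NSC, and 1 of 4 oligodendrocyte precursor genes fell, Sox8 at 0.392, 0.625 and 0.552 TPM in BP, against 5.92, 7.72 and 4.83 TPM in NSC; several of the astroglial genes are also radial glial. Of 17 immediate early and dissociation genes, 4 fell: Fos, Fosb, Jun and Egr1, with Jun at 41.3, 39.6 and 35.6 TPM in BP, against 146, 103 and 98.0 TPM in NSC and Fosb at 0.313, 0.386 and 0.373 TPM in BP, against 11.52, 3.51 and 6.20 TPM in NSC. Mlc1, Sox8 and Fosb passed the filter through NSC alone and so had to be lower in BP. The mitochondrial transcripts, 13 in number, included 1 that rose, mt-Atp8, at 10650.0, 7870.3 and 9350.3 TPM in BP, against 4608, 5887 and 3410.4 TPM in NSC, a call lost without NSC library 3. The part of these sources in the other differences was not tested.

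Whether the difference changed after E12.5 was tested across all genes, against the mean of the E13.5 and E14.5 differences, which share no library with E12.5. Of 13551 genes, 1316 were called (9.71%). The highest were Akr1b8 (log2 difference between stages 3.26 ± 0.26 SE, adjusted p = 1.22e-13), Nxph1, a neurexin ligand (log2 difference between stages 3.01 ± 0.42 SE, adjusted p = 1.56e-07), and Ebf2, given above. Nxph1 had 36.1, 38.7 and 27.2 TPM in BP, against 5.14, 8.45 and 3.23 TPM in NSC at E12.5, and averaged 6.41 TPM in BP and 5.88 TPM in NSC at E13.5 and 1.32 TPM in BP and 5.69 TPM in NSC at E14.5. Etv1 (log2 difference between stages 2.68 ± 0.39 SE, adjusted p = 2.38e-07) averaged 37.1 TPM in BP and 29.1 TPM in NSC at E13.5 and 13.1 TPM in BP and 16.4 TPM in NSC at E14.5, against over 100 TPM in each BP library of E12.5. Cbl, a ubiquitin ligase, had 26.7, 33.1 and 39.6 TPM in BP, against 8.25, 9.15 and 1.37 TPM in NSC. Klf12, a zinc finger repressor, had 32.7, 41.2 and 50.8 TPM in BP, against 8.05, 11.1 and 1.08 TPM in NSC; in both, NSC library 3 held near 1 TPM and the other NSC libraries 8 or more. Dlk1 and Emx2 were called as well (log2 difference between stages 2.201 ± 0.51 SE, adjusted p = 0.000353 and log2 difference between stages 1.84 ± 0.19 SE, adjusted p = 1.36e-10), and Eomes was called in the main fit (log2 difference between stages 1.29 ± 0.29 SE, adjusted p = 0.000259) but not with the length adjustment.

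Genes in the other direction had a lower BP minus NSC difference at E12.5 than at the later stages, through BP, NSC or both. Ndrg1, a stress and differentiation gene, had 4.18, 5.67 and 4.78 TPM in BP, against 22.4, 8.99 and 9.84 TPM in NSC at E12.5, and averaged 57.7 TPM in BP and 11.1 TPM in NSC at E13.5 and 152 TPM in BP and 42.6 TPM in NSC at E14.5 (log2 difference between stages -3.28 ± 0.36 SE, adjusted p = 7.05e-10). Sla, an adaptor protein, had 0.394, 0.800 and 0.690 TPM in BP, against 2.07, 0.833 and 0.542 TPM in NSC at E12.5 and averaged 75.4 TPM in BP and 15.0 TPM in NSC at E14.5 (log2 difference between stages -2.58 ± 0.46 SE, adjusted p = 8.59e-06). Ppp1r1b, the phosphatase inhibitor DARPP-32, had 4.01, 2.76 and 6.87 TPM in BP, against 8.55, 6.58 and 8.83 TPM in NSC at E12.5 and averaged 48.0 TPM in BP and 15.9 TPM in NSC at E14.5 (log2 difference between stages -2.80 ± 0.30 SE, adjusted p = 5.77e-10). These 3 genes were low in the BP of E12.5 and high in the BP of E14.5. Rlbp1 was lower in BP at E12.5 and averaged 68.8 TPM in BP and 99.7 TPM in NSC at E14.5. Lars2, a mitochondrial leucyl-tRNA synthetase whose gene holds a stretch resembling ribosomal RNA, had 89.5, 527 and 163 TPM in BP, against 10359, 331 and 4857 TPM in NSC at E12.5, and it is itself among the entries summed above as resembling ribosomal RNA. Of the NSC-defining genes, the difference between stages was -0.07 ± 0.26 SE for Hes5, -0.03 ± 0.22 SE for Sox2 and -0.23 ± 0.34 SE for Hes1, none called. These 3 do not stand for the radial glial list. Of its 26 genes, 7 were called higher and 1 lower between stages, against 8.69% and 1.03% of all genes. The list median was 0.60, against 0.282 for all genes. With the length adjustment 5 were called higher and 1 lower, with a median of 0.18.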

How the data were processed

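RNA was measured by bulk RNA-seq of FACS-sorted cells, and the deposited values are TPM per gene made by the authors. The submitters' processing notes name kallisto 0.43.0 and the builds GRCm38.p2 and mm10. No counts were used, so depth per library is unknown and no counting interval is given.

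All 70 libraries were fitted on log2(TPM + 1) with limma 3.58.1 in R 4.3.3, with 1 mean for each of 23 groups, 47 residual degrees of freedom and a variance trend. Genes needed a mean of 1 TPM in BP or NSC at E12.5. P-values are 2-sided and Benjamini-Hochberg adjusted over 13551 genes. A difference was called at adjusted p below 0.05 and at least 1 on the log2 scale. The script was tested on simulated data. An exact permutation test of 3 against 3 libraries cannot go below 0.1.

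The members, the 41 gene lists and the rules were chosen with earlier results of these data known. Genes named for size were the 12 largest called differences in each direction whose higher group averaged 20 TPM or more with no overlap between groups, and the 8 largest in each direction for the difference between stages; list members were named as examples after their values were seen. Transcript lengths came from a GRCm38 annotation for 13381 genes (98.7%). The length adjustment subtracted, in each library, a spline with 4 degrees of freedom of log2 length; it was added after seeing the data. Same-numbered BP and NSC libraries correlated at 0.108, -0.103 and -0.223 in their deviations from group means, and the numbers were not taken as pairs. With 3 libraries a group, these values cannot show whether same-numbered libraries share an origin. Some list members are counted in their lists but not reported here by name.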

Additional observations from a re-analysis of the deposited data

Results flagged for a closer look

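The difference between BP and NSC at E12.5 itself differed from the mean of the same difference at E13.5 and E14.5 for 1316 genes, by a test of that contrast in limma. The largest positive values on the log2 scale were 3.26 for Akr1b8, 3.01 for Nxph1, 2.96 for Ebf2, 2.85 for Fam65b, 2.71 for Rasgrp1, 2.69 for Klf12, 2.69 for Cbl and 2.68 for Etv1. The largest negative values were -6.22 for Ttr, -3.28 for Ndrg1, -3.002 for Lars2, -2.94 for Rlbp1, -2.80 for Ppp1r1b, -2.58 for Sla, -2.35 for Adamts3 and -2.33 for Bend6. All 16 were also called after length adjustment, which called 569 genes in all. For Lars2, which is itself among the ribosomal-like entries, NSC libraries 1 and 3 lay far above NSC library 2.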

How the results depend on the processing

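For BP against NSC at E12.5, 2308 genes were called, 1574 higher and 734 lower. A limma fit of the E12.5 libraries alone called 2301, 1564 higher and 737 lower. Its adjusted p was 3.56e-05 for Hes5 and 0.00354 for Dcc, against 2.56e-24 and 5.63e-10 in the main fit. A pseudocount of 5 gave 1188, with 833 higher and 355 lower, and no minimum difference gave 9405, with 6135 and 3270. Median ratio scaling gave 1023 higher and 1137 lower, and quantile normalization gave 979 higher. Of settings added after seeing the data, length adjustment gave 712 higher, the same without NSC library 3 gave 1356, with 581 higher, and leaving out the 3 libraries with Y-linked transcripts gave 1520, with 791 higher. Leaving out 1 library in turn gave 1696 to 2842 in all, 950 to 2081 higher and 716 to 761 lower; the lowest total and the lowest count of higher genes came without NSC library 3.

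For the difference between stages, 1316 genes were called, 1177 higher and 139 lower. A pseudocount of 5 gave 546, 490 higher and 56 lower. Median ratio scaling gave 863, with 490 and 373, quantile normalization 722, with 407 and 315, and no minimum difference 7284, with 5798 and 1486. A mean of at least 5 TPM gave 82 lower, and E13.5 alone as the comparator 214 lower. Length adjustment gave 569, with 289 and 280, and without NSC library 3 also 441, with 189 and 252. Leaving out 1 library in turn gave 647 to 1934, 500 to 1764 higher and 110 to 170 lower. The cause of these shifts was not tested.

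The replicate numbers were not taken to pair the libraries. With the replicate block 2312 genes were called at E12.5 and 1367 between stages. No named gene that was called reversed its direction under any setting run. For genes named for size at E12.5, the required lack of overlap excluded a reversal when 1 library was left out. Calls could still be lost: at E12.5 a pseudocount of 5 lost those of 19 of 167 named genes. Length adjustment lost 11 and added 5, and without NSC library 3 also lost 15 and added 4. The sign turned for 8 named genes, none of them called. Length adjustment put Atf4 at 0.0035, Emx1 at 0.14 and Neurod6 at 0.0026 on the log2 scale, and without NSC library 3 also Atf4 at 0.064, Cdkn1c at 0.086, Emx1 at 0.20 and Neurod6 at 0.027. Without the 3 libraries with Y-linked transcripts, which left NSC library 2 alone in its group, Emx1 stood at 0.21, Fezf2 at 0.15, Neurod6 at 0.23 and Zic4 at -0.64. Quantile normalization put Neurod6 at 0.025, and median ratio scaling Neurog2 at -0.0079. Leaving out 1 library in turn gave -0.17 to 0.0019 for Emx1, -0.28 to 0.013 for Fezf2, -1.68 to 0.42 for Hbb-y, -0.32 to 0.053 for Neurod6 and -0.13 to 0.81 for Zic4. Depth is unknown, and 3 libraries a group limit the precision.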
